A study of Mus musculus with 4 samples.

Results

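The 10 genes described here are surface receptors, surface antigens and transcription factors commonly used to identify mesenchymal stromal cells, namely Pdgfra, Pdgfrb, Lepr, Eng, Thy1, Nt5e, Cd44, Prrx1, Twist1 and Cspg4. They were taken by symbol from a table of 54532 genes, and all 10 were found. The libraries came from mouse bone marrow cells of the F1 hybrid strain CB6F1, which the labels call MSCs, released by digestion of whole marrow and then grown in culture, and the sample titles of both groups carry the term aGVHD. Cells of 2 libraries were given R at a dose of 0.5 µM (the labels write "um" and do not say what R is), and cells of 2 libraries were given DMSO, the solvent, as vehicle. The comparison asked how transcripts of these genes differed between R and vehicle. The labels do not state that the 2 libraries of a group are from different mice or dishes, and a p-value here therefore reflects the spread of these samples alone, which could be technical.

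Mesenchymal stromal cells of the marrow are the connective tissue cells that support blood formation and give rise to bone, fat and cartilage. No single gene defines them. Pdgfra and Pdgfrb encode receptor tyrosine kinases for platelet-derived growth factors, and Cspg4 encodes the proteoglycan NG2 of pericytes and other mural cells. Prrx1 and Twist1 encode transcription factors of embryonic mesenchyme, a homeodomain protein and a basic helix-loop-helix protein. Eng, Thy1 and Nt5e encode the surface antigens CD105, CD90 and CD73 by which cultured human stromal cells are recognised, and Cd44 encodes a hyaluronan receptor that leukocytes carry as well. Lepr, the leptin receptor, marks the perivascular stromal cells of adult mouse marrow.

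All 12 genes of a separate list of stromal markers were present in each library, and they summed to 3219 and 3180 FPKM in R and to 2573 and 2511 FPKM in vehicle. FPKM relates the reads of a gene to its exon length and to the size of the library. Sparc and Col1a1, both matrix genes, had the highest means of that list, at 928 ± 90.2 and 823 ± 40.9 FPKM in R and 702 ± 24.7 and 529 ± 4.73 FPKM in vehicle (SD, n = 2 each). Limma called 0 of the 12 genes, 7 had positive and 5 negative log2 fold changes, with a median of 0.12. Their median level was 81.7 and 93.3 FPKM in R against 100.8 and 90.7 FPKM in vehicle and overlapped, so the higher sums came with abundant genes such as Sparc and Col1a1. Macrophage transcripts were also abundant. The 20 macrophage and monocyte markers, none of them at 0, summed to 15947 and 12255 FPKM in R and to 23000 and 20571 FPKM in vehicle, and Lyz2 and C1qb, a lysozyme and a complement subunit, contributed most. Of the 20, 3 fell and 0 rose in R, 18 had log2 fold changes below 0, and the median was -0.49, where 1.37% of all tested genes fell and 0.345% rose. Fewer cells of a type and less RNA per cell cannot be told apart in such bulk libraries. Of 12 endothelial markers 9 averaged under 1 FPKM, of 12 T and NK cell markers 10 did and 6 were at 0 throughout, and all 7 Schwann cell and oligodendrocyte precursor markers were under 1 FPKM. Of 10 neutrophil markers 9 and of 8 B cell markers 5 were under 1 FPKM. Cdh5 and Egfl7 led the endothelial list at 2.78 and 2.67 FPKM in R and 2.60 and 1.56 FPKM in vehicle, Cd4 and Il7r the T and NK list at 6.46 and 0.967 FPKM in R and 8.13 and 1.36 FPKM in vehicle, and Ebf1 and Cd22 the B cell list at 8.36 and 1.48 FPKM in R and 6.59 and 2.58 FPKM in vehicle. Camp and Mmp8 led the neutrophil list, with 1.54 and 0.0228 FPKM in R against 1.19 and 0.279 FPKM in vehicle. Sox10, of the Schwann cell list, had 0.307 FPKM in R against 0.340 FPKM in vehicle. Ebf1 is also a gene of marrow stroma.

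The levels of the 10 genes spanned a wide range, and per unit of length Pdgfrb was the most abundant of them in each library. In R the order of means ran from Pdgfrb at 64.6 FPKM through Prrx1 at 29.4, Cd44 at 27.0, Twist1 at 25.6, Eng at 21.4, Pdgfra at 12.8, Cspg4 at 5.98 and Nt5e at 1.51 to Lepr at 0.503 and Thy1 at 0.323 FPKM. In vehicle it ran from Pdgfrb at 42.3 FPKM through Cd44 at 26.8, Prrx1 at 21.5, Eng at 20.4, Twist1 at 17.1, Pdgfra at 14.2, Cspg4 at 3.74 and Nt5e at 1.43 to Lepr at 0.494 and Thy1 at 0.421 FPKM. Neighbours in these orders whose libraries overlapped were Prrx1 and Cd44, Cd44 and Twist1, and Lepr and Thy1 in R, and Lepr and Thy1 in vehicle. Among the genes that averaged 1 FPKM or more, Pdgfrb was at the 92.3rd percentile of mean level, Cd44 at the 83.5th, Pdgfra at the 67.8th, Cspg4 at the 36.9th and Nt5e at the 7.28th. Lepr and Thy1 lay below that minimum, so 8 of the 10 genes entered the test.

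**Figure D1:**
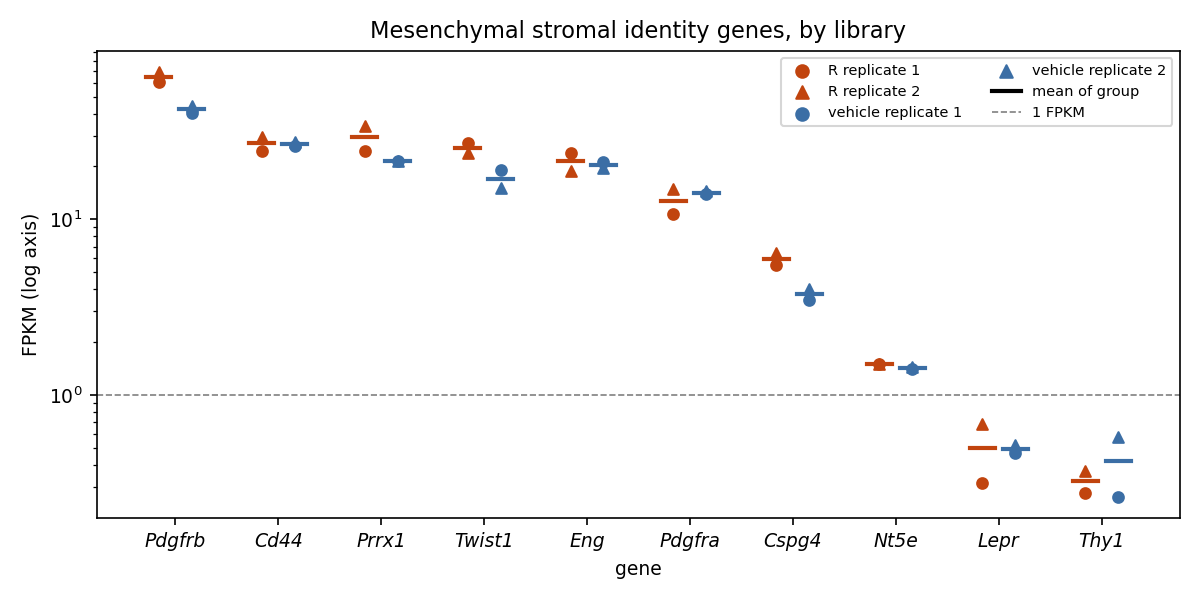
FPKM of each gene in each library on a log axis, with R in red to the left and vehicle in blue to the right, circles for replicate 1, triangles for replicate 2 and a bar at the group mean. Pdgfrb, Twist1, Cspg4 and Prrx1 lie higher in both R libraries than in both vehicle libraries, and Lepr and Thy1 lie under the dashed line at 1 FPKM in every library.

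None of the 8 tested genes passed the threshold of an adjusted p under 0.05, in either direction. Limma with Benjamini-Hochberg adjustment over 12176 genes called 42 genes higher and 167 lower in R, or 0.345 and 1.37% of those tested and 1.72% in either direction. At an unadjusted p under 0.05, 3 of the 8 (Pdgfrb, Cspg4 and Twist1) were higher in R, where 7.16% of tested genes were higher and 8.83% lower. The groups did not overlap for 5 of the 8, all higher in R, against 22.7% of tested genes that were higher without overlap and 25.2% that were lower. The median log2 fold change of the 8 was 0.24 on the log2(FPKM + 1) scale, and that of all tested genes was 0.00. Voom on recovered reads also called 0 of the 8. Removing a gene length trend called 2 of the 8, both higher in R, where it called 223 genes higher and 349 lower of 12173 tested. Counts over the 8 leave out Lepr and Thy1.

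**Figure D2:**
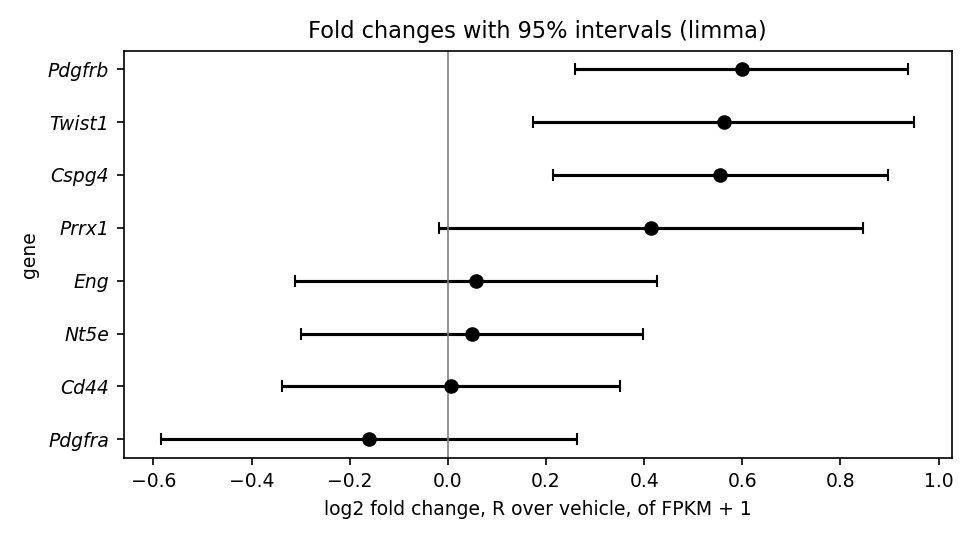
Log2 fold change of R over vehicle for the 8 tested genes on the log2(FPKM + 1) scale, with points for limma's estimates and bars for its 95% intervals. The intervals of Pdgfrb, Twist1 and Cspg4 lie above 0, those of the other 5 genes include 0, and no gene has an adjusted p under 0.05.

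Of the PDGF receptors, Pdgfrb was higher in both R libraries and Pdgfra was not. Pdgfrb (ENSMUSG00000024620, chromosome 18), the receptor of PDGF-B and PDGF-D, had 60.3 and 68.9 FPKM in R against 40.4 and 44.2 FPKM in vehicle. The groups did not overlap, and the ratio of means was 1.53. Its log2 fold change of 0.60 (SE 0.138, 95% interval 0.26 to 0.94) had an unadjusted p of 0.00513 and did not pass after adjustment (limma, Benjamini-Hochberg adjusted p = 0.112). Pdgfra (ENSMUSG00000029231) had 10.7 and 14.9 FPKM in R and 13.9 and 14.6 FPKM in vehicle. It binds PDGF-A, PDGF-B and PDGF-C and lies on chromosome 5 at positions 75152292 to 75198215 of GRCm38. R replicate 1 was the lowest of the 4 libraries and R replicate 2 the highest, so the groups overlapped. The log2 fold change was -0.16 with a 95% interval from -0.58 to 0.26 (limma, Benjamini-Hochberg adjusted p = 0.711). Antisense transcripts overlap 4.55 and 1.66% of its exons and were at most at 0.123 FPKM, and Mir7025, on the same strand, overlaps 0.299% and was at most at 3.06 FPKM.

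Because both receptors were read in the same library, their ratio does not depend on library scaling. Pdgfrb exceeded Pdgfra 5.64-fold and 4.64-fold in R replicates 1 and 2, against 2.91-fold and 3.03-fold in vehicle replicates 1 and 2. The genes differ in length, with 5478 exon bases for Pdgfrb and 10024 for Pdgfra. The ratio was chosen after the values were seen and is a description. Of the 5 genes in the list of PDGF ligands and the receptor-like gene Pdgfrl, all were tested and 0 were called. Log2 fold changes were positive for 3 and negative for 2, with a median of 0.05. Against 1947 of all 12176 tested genes, 1 of the 5 had an unadjusted p under 0.05. That gene was Pdgfc, a ligand of the alpha receptor, at 4.65 and 5.26 FPKM in R and 6.64 and 6.79 FPKM in vehicle, lower in both R libraries (log2 fold change -0.38; limma, Benjamini-Hochberg adjusted p = 0.228).

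Cspg4 (ENSMUSG00000032911, chromosome 9, 56865033 to 56899870) had 5.51 and 6.44 FPKM in R against 3.48 and 4.01 FPKM in vehicle. The groups did not overlap, and the ratio of means, 1.60, was the highest among the 10 genes. The log2 fold change was 0.55 (SE 0.138, 95% interval 0.21 to 0.90; unadjusted p = 0.00747) and did not pass in limma after Benjamini-Hochberg adjustment (adjusted p = 0.132). Pdgfrb and Cspg4, both known from mural cells, kept nearly the same proportion: Pdgfrb exceeded Cspg4 10.9-fold and 10.7-fold in R and 11.6-fold and 11.0-fold in vehicle, a description chosen after the values were seen. Of 9 tested mural cell and pericyte markers of 12, 0 were called and 3 had an unadjusted p under 0.05, where 1947 of all 12176 tested genes did. Of the 9, 7 had positive log2 fold changes, and the median was 0.23. Myh11, a smooth muscle myosin, had the smallest p of these, at 1.77 and 1.67 FPKM in R and 0.918 and 0.748 FPKM in vehicle (log2 fold change 0.57; limma, Benjamini-Hochberg adjusted p = 0.15).

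Both transcription factors were higher in each R library than in either vehicle library. Twist1 (ENSMUSG00000035799, chromosome 12, 33957671 to 33959829) had 27.3 and 23.8 FPKM in R against 19.1 and 15.1 FPKM in vehicle, a ratio of means of 1.50. The log2 fold change was 0.56 (SE 0.158, 95% interval 0.17 to 0.95; unadjusted p = 0.0125), short of the threshold in limma after Benjamini-Hochberg adjustment (adjusted p = 0.169). Prrx1 (ENSMUSG00000026586, chromosome 1, 163245119 to 163313710, minus strand) had 24.6 and 34.1 FPKM in R against 21.6 and 21.5 FPKM in vehicle. R replicate 2 stood apart, 1.38-fold above R replicate 1, while the vehicle libraries differed little. The log2 fold change of Prrx1 was 0.41 (SE 0.175, 95% interval -0.02 to 0.85) and did not pass in limma after Benjamini-Hochberg adjustment (adjusted p = 0.333). Without R replicate 2 the log2 fold change of Prrx1 was 0.19.

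Without R replicate 1, the log2 fold changes of Pdgfrb and Prrx1 were 0.69 and 0.64, and without R replicate 2 they were 0.50 and 0.19. Without vehicle replicate 1 they were 0.53 and 0.42, and without vehicle replicate 2 they were 0.66 and 0.41. Each of these fits leaves a lone library in a group, so only the effect sizes are given. With a gene length trend removed, Pdgfrb (adjusted p = 0.0412) and Cspg4 (adjusted p = 0.0499) passed the threshold in limma after Benjamini-Hochberg adjustment. The summed macrophage markers were lower in the same R libraries in which Pdgfrb, Cspg4, Twist1 and Prrx1 were higher. The summed stromal markers were higher there, but 5 of the 12 had negative log2 fold changes and their median levels overlapped between the groups. The part of either list in these differences was not tested.

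Of the list of 29 other mesenchymal transcription factors 21 were tested. None was called, and 5 had an unadjusted p under 0.05, where 1947 of all 12176 tested genes did. Of the 21, 13 had positive log2 fold changes, and the median was 0.08. Sox9, a regulator of cartilage formation, had the smallest p, at 7.28 and 8.90 FPKM in R and 4.85 and 4.57 FPKM in vehicle (log2 fold change 0.67; limma, Benjamini-Hochberg adjusted p = 0.0926).

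Promoter windows are shown for 3 of the genes that were higher in both R libraries and for Pdgfra, which was not, so that their sequences can be read side by side. Windows of 300 bases, from 250 bases before to 50 bases after the RefSeq start in GRCm38.p6, were at hand for 8 of the 10 genes. Capitals mark matches to CANNTG, the E-box bound by basic helix-loop-helix proteins such as Twist1, and to TAATTA, a homeodomain motif. The windows are chr1:163313601-163313900 (minus strand) for Prrx1 and, on the plus strand, chr12:33957421-33957720 for Twist1, chr9:56864854-56865153 for Cspg4 and chr5:75152001-75152300 for Pdgfra.
Prrx1: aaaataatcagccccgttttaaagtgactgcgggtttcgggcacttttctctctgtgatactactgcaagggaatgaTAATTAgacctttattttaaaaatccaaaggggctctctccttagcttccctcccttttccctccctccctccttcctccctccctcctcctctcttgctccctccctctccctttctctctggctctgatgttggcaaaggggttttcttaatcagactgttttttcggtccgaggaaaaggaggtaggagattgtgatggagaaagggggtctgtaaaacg
Twist1: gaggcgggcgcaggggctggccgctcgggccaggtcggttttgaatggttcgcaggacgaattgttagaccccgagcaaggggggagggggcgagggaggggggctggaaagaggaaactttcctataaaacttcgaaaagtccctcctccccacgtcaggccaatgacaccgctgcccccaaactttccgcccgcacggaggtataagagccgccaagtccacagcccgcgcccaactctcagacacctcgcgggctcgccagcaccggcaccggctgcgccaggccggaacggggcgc
Cspg4: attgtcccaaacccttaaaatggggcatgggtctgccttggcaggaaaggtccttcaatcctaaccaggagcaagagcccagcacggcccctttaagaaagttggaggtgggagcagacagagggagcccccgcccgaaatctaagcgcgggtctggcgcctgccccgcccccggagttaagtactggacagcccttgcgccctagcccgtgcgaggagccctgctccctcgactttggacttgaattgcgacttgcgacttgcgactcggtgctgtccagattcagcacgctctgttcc
Pdgfra: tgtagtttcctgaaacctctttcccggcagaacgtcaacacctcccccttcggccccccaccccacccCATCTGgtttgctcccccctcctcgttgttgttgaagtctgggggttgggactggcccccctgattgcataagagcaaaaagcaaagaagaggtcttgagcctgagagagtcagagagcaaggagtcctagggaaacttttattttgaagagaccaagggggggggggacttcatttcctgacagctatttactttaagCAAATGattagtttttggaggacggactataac

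The Prrx1 window held 1 match to TAATTA, which begins 173 bases before the start site, and 0 matches to CANNTG. The Pdgfra window held 2 matches to CANNTG and 0 to TAATTA, and the Twist1 and Cspg4 windows held 0 of either. A further motif, TTCNNNGAA, to which STAT factors bind, had 0 matches in all 4 windows. Each motif reads the same on both strands, and no matches overlapped. Of all 32851 windows of that length 72.3% held CANNTG, 5.29% held TAATTA and 8.3% held TTCNNNGAA. A match is a description of the letters, and its absence says nothing about binding.

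The surface antigens Eng, Cd44 and Nt5e had log2 fold changes near 0. Eng (ENSMUSG00000026814, chromosome 2, 32646595 to 32682669), a co-receptor of the TGF-beta family, had 23.8 and 19.0 FPKM in R and 21.2 and 19.6 FPKM in vehicle. The groups overlapped, with both extremes in R, and the log2 fold change was 0.06 with a 95% interval from -0.31 to 0.43 (limma, Benjamini-Hochberg adjusted p = 0.891). Exons of Fpgs on the other strand, at most at 5.91 FPKM, overlap 1.51% of its exons. Cd44 (ENSMUSG00000005087, chromosome 2, 102811141 to 102901665, minus strand) had 24.4 and 29.6 FPKM in R and 26.2 and 27.4 FPKM in vehicle. The vehicle values lay between those of R, and the log2 fold change was 0.01 with a 95% interval from -0.34 to 0.35 (limma, Benjamini-Hochberg adjusted p = 0.988). Leukocytes also carry Cd44, and the part of its reads that came from macrophages was not tested. The table gives 1 value per gene, so splice forms of Cd44 were not analysed here.

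Nt5e (ENSMUSG00000032420, chromosome 9, 88327197 to 88372092) encodes the enzyme that makes adenosine from AMP outside the cell. It had 1.51 FPKM in each R library, against 1.41 and 1.44 FPKM in vehicle. The groups did not overlap, by a small margin, and the log2 fold change was 0.05 with a 95% interval from -0.30 to 0.40 (limma, Benjamini-Hochberg adjusted p = 0.904). Each value rests on 214 to 251 recovered reads.

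The genes that act with these antigens included 1 call. Of 14 tested genes of the endoglin receptor complex and its targets, of 16, 1 rose, 0 fell and 5 had an unadjusted p under 0.05. Of those 5, Smad6, Smad7, Id1 and Tgfb3 were higher in R and Id2 was lower. The median log2 fold change of the 14 was 0.10, with 9 above 0 and 5 below. Among all 12176 tested genes, 0.345% rose, 1.37% fell and 1947 had an unadjusted p under 0.05. Smad6, a feedback inhibitor of BMP signalling, had 22.7 and 20.4 FPKM in R against 11.8 and 11.5 FPKM in vehicle. It rose with a log2 fold change of 0.83 (SE 0.121, limma, Benjamini-Hochberg adjusted p = 0.0388). With each library left out in turn, the log2 fold change of Smad6 ranged from 0.76 to 0.91. Its call was lost with every gene above 0 FPKM kept (limma, Benjamini-Hochberg adjusted p = 0.147). Of 13 tested CD44 ligands and hyaluronan genes, of 16, 0 were called and 3 had an unadjusted p under 0.05. Log2 fold changes were positive for 10 and negative for 3 of the 13, with a median of 0.08. Has2, a hyaluronan synthase, had the smallest p, at 0.966 and 1.14 FPKM in R and 1.94 and 1.93 FPKM in vehicle (log2 fold change -0.52; limma, Benjamini-Hochberg adjusted p = 0.168). Of 7 tested genes of the extracellular adenosine axis, of 14, 3 had positive and 4 negative log2 fold changes, with a median of -0.03. Of these 7, 0 were called and 1 had an unadjusted p under 0.05. That gene was Slc29a1, a nucleoside transporter, at 66.9 and 52.7 FPKM in R and 46.9 and 39.8 FPKM in vehicle (log2 fold change 0.45; limma, Benjamini-Hochberg adjusted p = 0.282).

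Of the list of 25 further stromal surface and niche markers 24 were tested, of which 0 rose, 1 fell and 10 had an unadjusted p under 0.05. Of those 10, Ly6a, Bst1 and Anpep were lower in R and the others higher. Col1a1, Col1a2, Col3a1, Cxcl12, Vcam1, Cdh11, Ddr2 and Fap of this list are also among the 12 stromal markers summed above. Over all 12176 tested genes 1.37% fell, 0.345% rose and 1947 had an unadjusted p under 0.05. The median log2 fold change of the 24 was 0.19, with 16 above 0 and 8 below. The gene that fell was Ly6a, which encodes Sca-1, a surface antigen of mouse stromal and blood progenitors. It had 28.4 and 22.0 FPKM in R against 90.6 and 78.3 FPKM in vehicle. It fell with a log2 fold change of -1.71 (SE 0.169, limma, Benjamini-Hochberg adjusted p = 0.0113). The call of Ly6a was lost with every gene above 0 FPKM kept (limma, Benjamini-Hochberg adjusted p = 0.123).

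**Figure D3:**
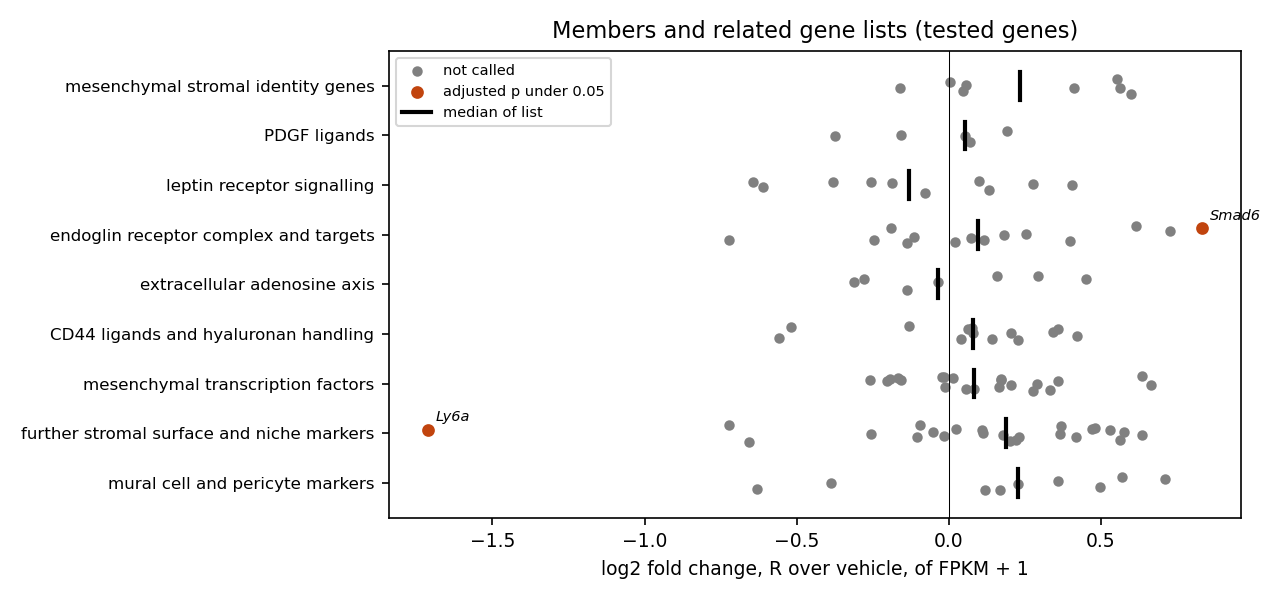
Log2 fold changes of R over vehicle on the log2(FPKM + 1) scale for the 8 tested genes and for the tested members of 8 related lists, 1 point per gene, with a bar at each list's median. Grey points were not called, and the 2 called genes, in red, are Smad6, higher in R, and Ly6a, lower in R.

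Lepr and Thy1 were detected at low levels in every library and were not tested. Lepr (ENSMUSG00000057722, chromosome 4, 101717404 to 101815352) had 0.316 and 0.690 FPKM in R and 0.466 and 0.522 FPKM in vehicle, from 43 and 88 recovered reads in R and 58 and 66 in vehicle. Both extremes were R libraries, and their exact 95% Poisson intervals, 0.229 to 0.426 and 0.554 to 0.850 FPKM, did not overlap each other. Thy1 (ENSMUSG00000032011, chromosome 9, 44043384 to 44048579) had 0.277 and 0.369 FPKM in R and 0.265 and 0.577 FPKM in vehicle, from 16 and 20 reads in R and 14 and 31 in vehicle. The lowest and the highest value were both vehicle libraries, whose intervals of 0.145 to 0.445 and 0.392 to 0.819 FPKM overlapped. These intervals cover counting error only. They can be too narrow even for that, since reads without molecular identifiers are not independent molecules. On the log2(FPKM + 1) scale the log2 fold change of Lepr was -0.0024 and that of Thy1 -0.10. Of 11 genes of leptin receptor signalling 10 were tested and 0 were called. An unadjusted p under 0.05 was found for 4 of the 10, and for 1947 of all 12176 tested genes. The median log2 fold change of the 10 was -0.13. Ptpn1, a phosphatase that restrains leptin signalling, had the smallest p, at 23.9 and 23.3 FPKM in R and 38.1 and 36.8 FPKM in vehicle (log2 fold change -0.64; limma, Benjamini-Hochberg adjusted p = 0.0648).

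The difference between the R libraries varied with gene length. Over all tested genes, the median difference of R replicate 2 from R replicate 1 on the log2(FPKM + 1) scale was -0.31 for 1103 genes with exons under 1 kb in all and 0.25 for 1941 genes over 8 kb. Vehicle replicate 2 differed from vehicle replicate 1 in the same direction and by less, with medians of -0.13 and 0.10. Prrx1 and Pdgfra, with 11066 and 10024 exon bases, were higher in R replicate 2 than in R replicate 1 by 0.45 and 0.44, and Twist1, with 1628 bases, was lower by 0.19. Eng, with 4048 bases, was at -0.31, below its class, and Nt5e, with 8602 bases, was at 0.00. The difference between groups had little of this trend, with a median log2 fold change of R over vehicle of -0.05 under 1 kb and 0.02 over 8 kb. With the trend removed, the log2 fold changes were 0.59 for Pdgfrb, 0.59 for Twist1, 0.52 for Cspg4 and 0.38 for Prrx1.

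**Figure D4:**
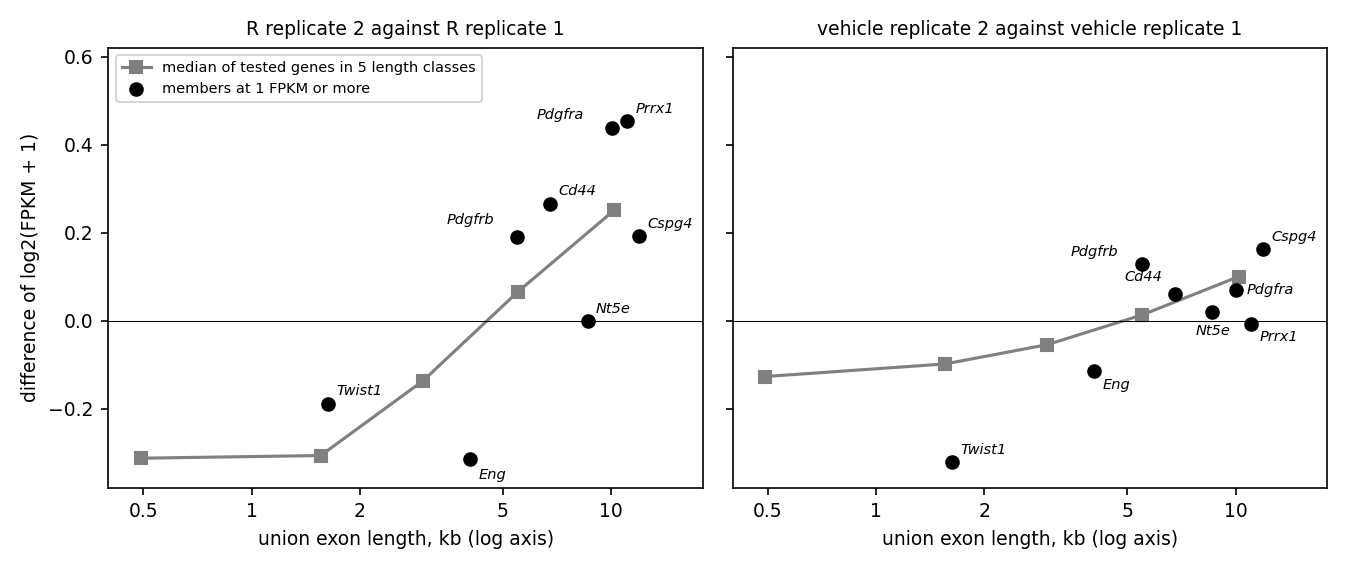
Difference in log2(FPKM + 1) between replicate 2 and replicate 1 against union exon length on a log axis, for R on the left and vehicle on the right. Black points are the 8 tested genes and grey squares the medians of all tested genes in 5 length classes, which run from -0.31 to 0.25 in R and from -0.13 to 0.10 in vehicle.

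Across all the alternatives in processing, the log2 fold changes of Pdgfrb, Twist1, Cspg4 and Prrx1 were above 0. The filters, the variance trend and the replicate block leave these log2 fold changes as they were. Leaving out 1 library cannot reverse their sign, since the groups of these genes did not overlap. Pdgfrb ranged from 0.50 to 0.74, Twist1 from 0.40 to 0.72, Cspg4 from 0.46 to 0.76 and Prrx1 from 0.19 to 0.64. Eng ranged from -0.10 to 0.21, Cd44 from -0.13 to 0.14 and Pdgfra from -0.38 to 0.06, so the sign of these 3 depended on the setting. Nt5e ranged from 0.03 to 0.18. On the TPM scale, which is log2(TPM + 1), the median of all tested genes moved to 0.13. Relative to that median Pdgfrb at 0.74, Twist1 at 0.71, Cspg4 at 0.76 and Prrx1 at 0.56 remained higher in R. The size of these values is not comparable with values on the log2(FPKM + 1) scale.

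**Figure D5:**
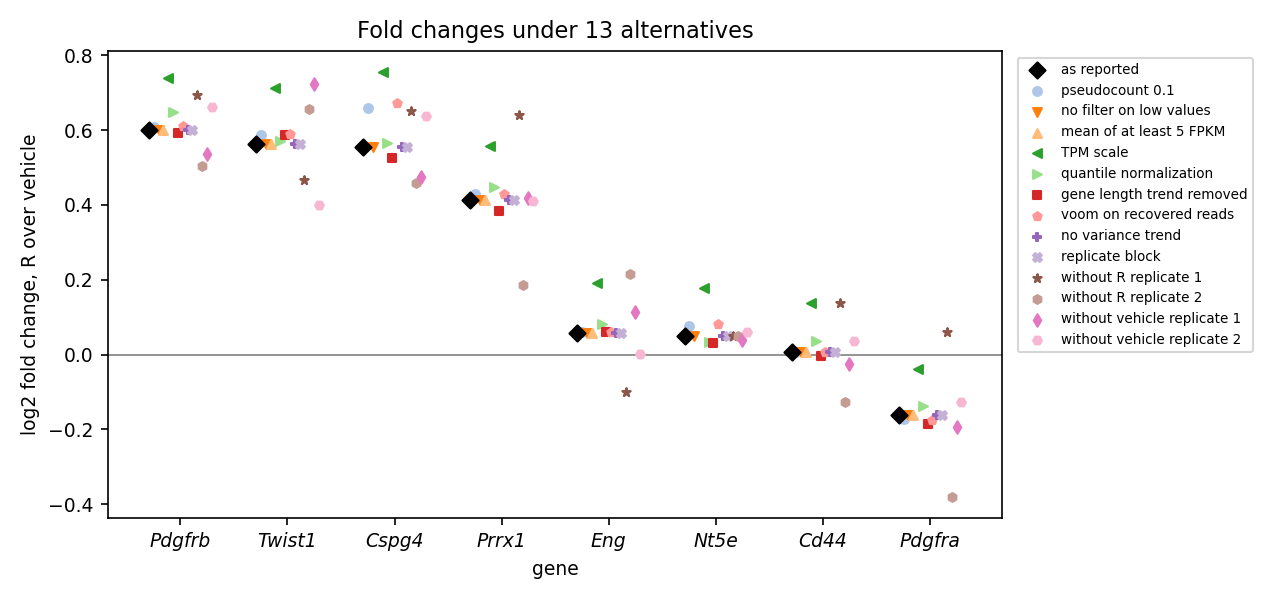
Log2 fold change of R over vehicle for the 8 tested genes as reported (black diamonds) and under 13 alternatives (other symbols). Voom, TPM and a pseudocount of 0.1 are on scales other than log2(FPKM + 1). Pdgfrb, Twist1, Cspg4 and Prrx1 lie above 0 under each alternative that could be computed, and the points of Eng, Cd44 and Pdgfra fall on both sides of 0.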

How the data were processed

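Total RNA of 4 libraries (2 R, 2 vehicle) was sequenced by the authors, who deposited 1 FPKM value per gene and library, per the file headers. The builds GRCm38 and mm10 and edgeR 3.18.1 are named per the submitters' processing notes, with no role given. For the aligner, the counter, the annotation and any filter, nothing is given in the sources used here. Columns were matched to samples by title.

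GENCODE M21 (GRCm38) gave symbols, coordinates and union exon lengths for 54495 of 54532 identifiers. FPKM multiplied by exon length gave whole reads within 0.02 for 96.3 to 96.4% of values above 0, among them all values of the 10 genes, and 16570419 to 18140519 recovered reads per library. At this depth 1 FPKM of a 2 kb gene is 35.3 to 38.6 reads.

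The comparison of R with vehicle used limma 3.58.1 (R 4.3.3; linear model, eBayes with trend) on log2(FPKM + 1), which understates changes of low genes, for 12176 genes averaging 1 FPKM or more, with Benjamini-Hochberg adjustment over all of them and a call at an adjusted p below 0.05. There were 2 residual degrees of freedom. The scripts were tested on simulated data with changes larger than those of Pdgfrb, Cspg4, Twist1 and Prrx1. Whether changes as small as theirs would be called was not tested. Alternatives were the pseudocount, the filter, TPM and quantile scaling, removal of a length trend (loess), voom on recovered reads, no variance trend, a replicate block and leaving out each library.

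The genes and lists were chosen with earlier results of these data known. Every called member of a related list is named, or else the member with the smallest p, and of marker lists the pair with the highest mean, of which 1 gene is not reported here. Promoter windows are from RefSeq (GRCm38.p6).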

Additional observations from a re-analysis of the deposited data

How the results depend on the processing

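Under the alternatives, 104 log2 fold changes of the 10 genes were recomputed. Of these, 91 kept their direction and side of the threshold or, for Lepr and Thy1, their value. A further 8 passed the threshold that the reported value did not, and 5 changed sign. Lepr and Thy1 entered only the fit without the filter, which cannot change a log2 fold change. The signs that changed were those of genes far from the threshold, namely Pdgfra (0.059) and Eng (-0.10) without R replicate 1, and Cd44 with the length trend removed (-0.0026), without R replicate 2 (-0.13) and without vehicle replicate 1 (-0.02). Over the fits that leave out 1 library, Pdgfra ranged from -0.38 to 0.059, Eng from -0.10 to 0.21 and Cd44 from -0.13 to 0.14. The reported counts were 42 genes higher and 167 lower in R, and 0 of the 8 tested genes in either direction. With every gene above 0 FPKM kept, limma called 0 genes higher and 0 lower of 24958, with 2767 at an unadjusted p under 0.05, where voom called 83 higher of 11564. Removing the length trend gave 223 genes higher and 349 lower, and 2 of the 8 higher. Leaving out each library in turn gave 96 to 438 genes higher, 193 to 665 lower, 0 to 2 of the 8 higher and 0 of the 8 lower. The cause of these shifts was not tested. With a mean of at least 5 FPKM, Nt5e and Cspg4 were not tested. Fits that leave out a library assume that the lone sample varies like the other group.

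Replicate numbers are shared between the groups, but the labels do not say that they mark a shared animal, culture or day, and deviations of same-numbered libraries from their group means correlated at 0.353 over tested genes. With the replicate block, 891 genes were higher and 1009 lower, and 4 of the 8 (Pdgfrb, Twist1, Cspg4 and Prrx1) were higher in R. That fit has 1 residual degree of freedom. Limma gave the variance pooled over genes 91.3 prior degrees of freedom there, against 3.83 in the reported fit. The p-values of the block fit therefore rest almost wholly on the pooled variance. In the reported fit, with 2 residual degrees of freedom, the pooled variance also has the larger weight.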
